A study of Mus musculus with 6 samples.

Results

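Inflammasomes are protein platforms that cells of the innate immune system build in the cytosol when a sensor detects microbial products or signs of damage. The sensors recruit the adaptor ASC, which gathers pro-caspase-1; active caspase-1 matures interleukin-1 beta and interleukin-18 and cleaves gasdermin D, whose fragment forms pores in the plasma membrane. In the brain, microglia are the cells best known for NLRP3 inflammasome activity, and the transcripts of several components are known to be raised by a priming signal through NF-kB before a second signal triggers assembly.

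The 9 transcripts described here are those of inflammasome components, taken by gene symbol from the 33696 genes in the files. No rule on their measured values was used, but the list was chosen with earlier results of these data known. They are the sensors Nlrp3, Nlrc4 and Aim2, the adaptor Pycard (ASC), the inflammatory caspases Casp1 and Casp4, the pore former Gsdmd, and Txnip and Nek7, which in studies of mouse macrophages bind NLRP3. All 9 symbols were found once. RNA of single mouse brain cells was read with a droplet kit that tags the 3′ ends of transcripts, on freshly dissociated tissue. They form 3 groups of 2 libraries: TRPM2 Mg KO animals with bilirubin, wild type (WT) with bilirubin, and WT with vehicle. TRPM2 is a calcium-permeable cation channel and bilirubin a breakdown product of haem; the labels do not expand "Mg", give no driver line for the knockout, and name no knockout group with vehicle, so the knockout can be compared only under bilirubin or with WT vehicle. The sources used here give no dose, time, brain region, age or sex. The labels do not say whether the 2 libraries of a group are separate animals, so a p-value measures only how far libraries vary, and that variation may be technical.

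Per library there were 4137 to 24309 barcodes and 24165563 to 63402551 UMIs (unique molecular identifiers, which count transcripts), and 94144 of 95014 barcodes passed the cell filter. Any pair of libraries shared at most 0.943% of the barcodes of the smaller one. A class was given to a cell only where it held at least 3 of that class's 10 markers and at least 2 times as many as of any other class, which placed 29914 cells (31.8%) and 10900 microglia-like cells; of these, 5468 would miss a stricter gate. Microglia-like cells numbered 2047 and 330 with TRPM2 Mg KO bilirubin, 1823 and 945 with WT bilirubin, and 2739 and 3016 with WT vehicle. All 10 microglia markers were detected in them, at a summed 7664 to 9044 CPM (a gene's UMIs scaled to the total of the class, in the usual CPM unit) in TRPM2 Mg KO bilirubin, 8517 to 9619 CPM in WT bilirubin and 5424 to 5940 CPM in WT vehicle. Libraries stood apart in mitochondrial UMIs: the median per cell was 5.67% and 3.81% in TRPM2 Mg KO bilirubin, 7.21% in WT bilirubin replicate 1 but 0.657% in WT bilirubin replicate 2, and 1.07% and 0.854% in WT vehicle. Where a call of a single gene in microglia-like cells without WT bilirubin replicate 1 is given below, its value without replicate 2 follows. The count of pathway genes called without replicate 1 has no such counterpart, and not all of those genes are named as called. A fit without either replicate leaves 1 WT bilirubin library, which is assumed to vary like the libraries of the other groups. Such a call therefore describes that library. Trpm2, named by the knockout label, had 16.4 and 21.4 CPM in microglia-like cells of TRPM2 Mg KO bilirubin, 18.5 and 34.1 CPM in WT bilirubin and 19.3 and 14.4 CPM in WT vehicle. The deleted stretch is not named in the labels, so 3′ counts of Trpm2 do not test the genotype.

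The stretches of DNA just before the genes' starts were read from RefSeq (build GRCm38.p6), 250 bases each, from the most upstream start listed, for the 8 members matched there: Nlrp3, Nlrc4, Aim2, Pycard, Casp1, Casp4, Txnip and Nek7. Of these 8, Casp4 was the only one with a match to the NF-kB motif searched (GGG, any 3 bases, then TTCC, on either strand), which was present in 4.63% of 27025 promoters of that length. It held 3 such matches, which began 93, 39 and 14 bases before the start. Nlrc4 and Pycard each held 1 match to the C/EBP motif TTGCNNAA, which 9.55% of promoters held, at 36 and 142 bases. The IRF motif (GAAA, any 2 bases, then GAAA; 3.05% of promoters) and the AP-1 motif TGANTCA (6.85%) had no match in any of the 8; none of the matches overlapped another. A match is a string of letters, not a measured binding site. Shown here are Casp4, the promoter with the most matches, Nlrc4, the member whose levels ran against those of the others below, and Nlrp3, the best known sensor, with no match; capitals mark the matches. Casp4 lies at chr9:5308599-5308848 on the plus strand, Nlrc4 at chr17:74459109-74459358 on the minus strand and Nlrp3 at chr11:59541319-59541568 on the plus strand.
Casp4: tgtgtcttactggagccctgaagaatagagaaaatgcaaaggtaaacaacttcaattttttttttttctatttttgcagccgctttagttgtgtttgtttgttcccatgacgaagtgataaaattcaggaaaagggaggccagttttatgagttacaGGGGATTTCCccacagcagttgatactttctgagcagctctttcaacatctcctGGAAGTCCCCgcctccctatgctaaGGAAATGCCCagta
Nlrc4: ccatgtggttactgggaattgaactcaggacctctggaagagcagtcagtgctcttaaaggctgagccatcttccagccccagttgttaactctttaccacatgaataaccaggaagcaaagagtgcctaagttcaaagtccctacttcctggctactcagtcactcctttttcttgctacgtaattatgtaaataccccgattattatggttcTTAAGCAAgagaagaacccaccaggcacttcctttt
Nlrp3: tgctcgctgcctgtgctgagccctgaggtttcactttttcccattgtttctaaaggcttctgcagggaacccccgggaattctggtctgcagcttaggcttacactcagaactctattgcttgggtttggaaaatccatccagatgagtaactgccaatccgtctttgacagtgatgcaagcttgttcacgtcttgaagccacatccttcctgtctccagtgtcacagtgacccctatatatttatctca

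The first comparison asked which cells held these transcripts. In the 6 classes with at least 20 cells in every library, 8 of the 9 members had their highest mean level in microglia-like cells, and in each of the 6 libraries the microglia-like value lay above that of every other class. Nlrc4 was the exception and had its lowest mean there. Of 45 member and class pairs, 42 passed an exact two-sided sign-flip permutation test over the 6 libraries on the log2(CPM + 1) scale; 40 were higher in microglia-like cells and 2 were lower. In this exact test each of the 42 had p = 0.03125, the smallest that 6 libraries allow, and a Benjamini-Hochberg adjusted p = 0.0335 over the 45 pairs.

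Among the sensors, Nlrp3, which responds to potassium efflux, crystals and many other danger signals, averaged 87.5 ± 30.3 CPM in microglia-like cells (SD, n = 6 libraries), against 10.5 ± 7.76 CPM in endothelial-like cells and 2.29 ± 1.79 CPM in choroid plexus-like cells, the lowest. The log2 difference was 3.10 ± 1.05 against endothelial-like and 4.90 ± 0.86 against choroid plexus-like cells (SD, n = 6), and the microglia-like range did not overlap any other. Aim2, the sensor of cytosolic double-stranded DNA, averaged 93.1 ± 27.7 CPM in microglia-like cells, against 17.5 ± 4.45 CPM in endothelial-like and 3.84 ± 1.30 CPM in choroid plexus-like cells. Between the lower classes the ranges of both genes overlapped from each rank to the next.

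Nlrc4, which pairs with NAIP proteins to sense bacterial flagellin and secretion needles, had the reverse order. It averaged 7.60 ± 3.997 CPM in microglia-like cells, against 18.7 ± 6.40 CPM in choroid plexus-like, 14.8 ± 6.06 CPM in ependymal-like, 12.9 ± 7.73 CPM in endothelial-like, 9.52 ± 4.84 CPM in oligodendrocyte-like and 9.27 ± 4.39 CPM in astrocyte-like cells. Microglia-like cells were lower than choroid plexus-like cells in 6 of 6 libraries (log2 difference -1.28 ± 0.50) and lower than endothelial-like cells in 6 of 6 (-0.69 ± 0.74). The differences from ependymal-like (-0.92 ± 1.03, adjusted p = 0.131), astrocyte-like (-0.23 ± 0.32, adjusted p = 0.224) and oligodendrocyte-like cells (-0.26 ± 0.94, adjusted p = 0.531) did not pass the permutation test. Neighbours in the order overlapped throughout. In the annotation (GENCODE M21) a processed pseudogene overlaps Nlrc4 on the same strand. Whether it overlaps an exon, and whether its reads were counted as Nlrc4, was not examined.

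Pycard, the adaptor that links sensors to caspase-1, averaged 330 ± 46.1 CPM in microglia-like cells and 87.8 ± 29.7 CPM in endothelial-like cells, the next class, with no overlap. Casp1, the caspase that matures interleukin-1 beta, averaged 19.0 ± 4.46 CPM in microglia-like and 3.71 ± 1.22 CPM in endothelial-like cells. Casp4, the mouse caspase-11 that binds bacterial lipopolysaccharide in the non-canonical pathway, averaged 54.6 ± 23.3 CPM in microglia-like and 9.82 ± 9.44 CPM in astrocyte-like cells, the next class.

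Gsdmd, the substrate of both caspases, averaged 39.1 ± 15.4 CPM in microglia-like cells and 18.7 ± 10.0 CPM in endothelial-like cells. The difference, 1.15 ± 0.62 on the log2 scale, had 1 sign in 6 of 6 libraries, although the 2 ranges overlapped. In the other classes Gsdmd averaged 1.75 to 6.02 CPM.

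Txnip encodes a thioredoxin-binding protein induced by glucose. It averaged 432 ± 126 CPM in microglia-like and 226 ± 72.8 CPM in ependymal-like cells (log2 difference 0.96 ± 0.39). The Txnip mean was lowest in choroid plexus-like cells, at 41.3 ± 14.7 CPM (log2 difference 3.38 ± 0.64). Nek7, a mitotic kinase, was spread more evenly over the classes than the other members highest in microglia-like cells. Nek7 averaged 118 ± 28.3 CPM in microglia-like and 79.8 ± 31.3 CPM in endothelial-like cells, the smallest of the 40 positive differences (0.59 ± 0.36, 6 of 6 libraries). Its lowest mean was 37.0 CPM, in choroid plexus-like cells. Antisense genes overlap Txnip and Nek7, 2 further annotated genes (Gm37080 and Gm37101) overlap Nek7 on its own strand, and opposite-strand genes overlap Pycard and Aim2; whether the counting used strand was not given in the sources used here.

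**Figure D1:**
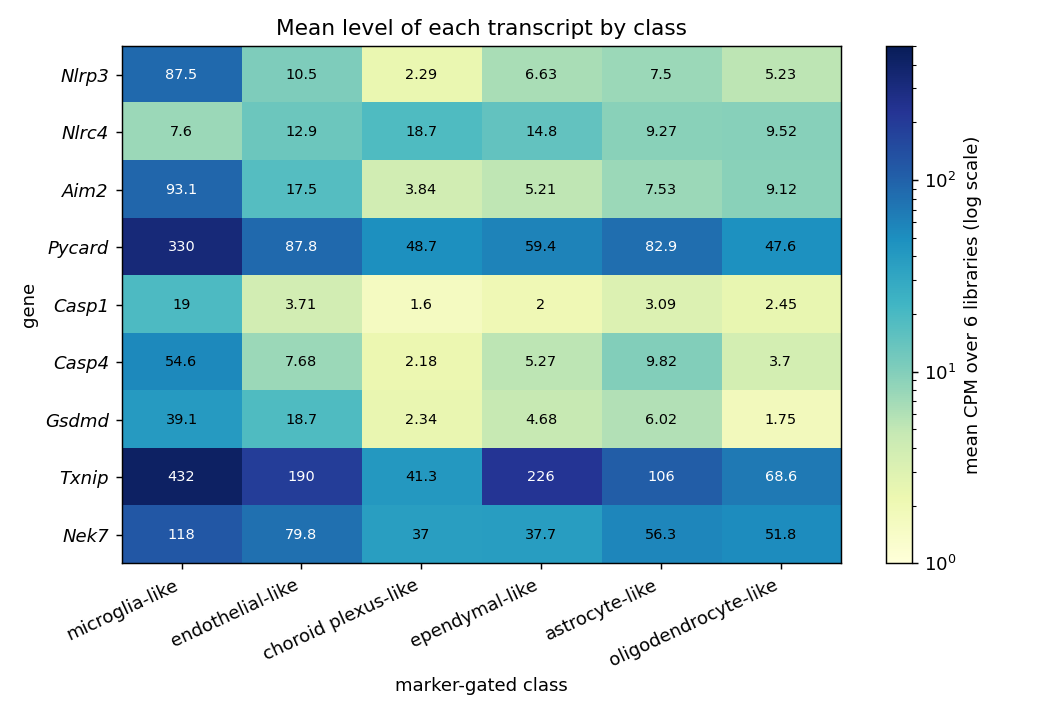
Mean CPM over the 6 libraries of each of the 9 transcripts (rows) in the 6 classes (columns), with the colour on a log scale and the mean printed in each cell. In 8 rows the microglia-like column is highest, at 19.0 to 432 CPM; in the Nlrc4 row it is lowest, at 7.60 CPM, and the choroid plexus-like column is highest, at 18.7 CPM.

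Microglia markers were also present outside microglia-like cells. Their summed level was 494 to 829 CPM in endothelial-like, 422 to 888 CPM in astrocyte-like and 186 to 382 CPM in choroid plexus-like cells. The part of such RNA in the members' levels outside microglia-like cells was not tested. The choroid plexus transcript Ttr, in turn, reached 4780 to 17686 CPM in microglia-like cells and 117571 to 235413 CPM in choroid plexus-like cells.

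Cells were also scored for at least 1 UMI of a member, after thinning each to 1000 UMIs because depth differed between libraries (median 1779 and 2008 UMIs per microglia-like cell in TRPM2 Mg KO bilirubin, 2147 and 2137 in WT bilirubin, 1529 and 2247 in WT vehicle). Any of the 9 members was detected in 56.5% ± 5.26 of microglia-like cells in TRPM2 Mg KO bilirubin, 65.4% ± 12.7 in WT bilirubin and 58.0% ± 1.39 in WT vehicle (SD, n = 2 each). Without thinning the share was 70.5% with TRPM2 Mg KO bilirubin, 77.6% with WT bilirubin and 73.2% with WT vehicle. In choroid plexus-like cells thinned alike, it was 15% with TRPM2 Mg KO bilirubin, 13.8% with WT bilirubin and 20.1% with WT vehicle. Thinning left out 214, 366 and 502 microglia-like cells below 1000 UMIs in TRPM2 Mg KO bilirubin, WT bilirubin and WT vehicle. No test was run on these shares, and the SDs of the groups overlap.

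The share with a Gsdmd UMI was 3.82% ± 0.23 in TRPM2 Mg KO bilirubin, 4.25% ± 0.37 in WT bilirubin and 1.93% ± 0.39 in WT vehicle, against 0.21% to 0.68% in choroid plexus-like cells. The share with an Nlrp3 UMI was 5.48% ± 1.59 in TRPM2 Mg KO bilirubin, 8.86% ± 5.15 in WT bilirubin and 6.66% ± 0.08 in WT vehicle, against 0.14% to 0.31% in choroid plexus-like cells. UMIs of Nlrp3, Pycard and Casp1, the 3 parts of a canonical NLRP3 inflammasome, were found together in 19 and 4 microglia-like cells of TRPM2 Mg KO bilirubin, 22 and 10 of WT bilirubin, and 6 and 15 of WT vehicle. These were 0.928% and 1.21% of the cells in TRPM2 Mg KO bilirubin, 1.21% and 1.06% in WT bilirubin, and 0.219% and 0.497% in WT vehicle, without thinning. Both bilirubin groups lay above WT vehicle in this unthinned count.

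The second comparison asked what bilirubin changed in WT microglia-like cells. The edgeR quasi-likelihood test called none of the 9 members at an adjusted p under 0.05 in WT bilirubin over WT vehicle; it called 0.027% of the 14793 genes tested (4 genes), and 4 members had an unadjusted p under 0.05, as did 18.4% of all genes. DESeq2 called none of the 7 members to which it gave an adjusted p, beside 4.32% of the 6066 genes that had one. For the other comparisons and classes below, the share of all genes called by DESeq2 is not given here. Its counts of members there are therefore not read as results about them. Of the 9 log2 fold changes 8 were above 0, with a median of 0.44, beside 0.05 for all genes tested. In 5 members every WT bilirubin library lay above both WT vehicle libraries, as in 32% of all genes, and in 1 every library lay below, as in 20.8%. These shares are the level against which the members' counts are to be read.

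Gsdmd stood furthest apart. It had 57.7 and 43.1 CPM in WT bilirubin, against 17.0 and 24.3 CPM in WT vehicle. The groups did not overlap, and the log2 fold change was 1.17 (SE 0.30; edgeR adjusted p = 0.121 from 2 libraries a group). Without the filter on low counts it passed (1.15, adjusted p = 0.0228), as did 3.35% of all genes; the adjusted p ranged from 0.0228 to 0.673 over the alternatives.

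Casp4 had 50.7 and 89.9 CPM in WT bilirubin, against 33.0 and 29.0 CPM in WT vehicle. The lowest WT bilirubin library lay above both vehicle libraries, with a log2 fold change of 1.04 (SE 0.32, edgeR adjusted p = 0.144). Without WT bilirubin replicate 1, with 1 library left in that group, it passed (1.34, adjusted p = 0.00936), as did 10.7% of all genes; without replicate 2 it was 0.58 (adjusted p = 0.343), and 0.43% of all genes passed. The lowest and highest adjusted p over all alternatives were 0.00936 and 0.645. Casp1 had 22.2 and 21.3 CPM in WT bilirubin, against 12.2 and 14.4 CPM in WT vehicle; its replicates lay close together and the groups apart (log2 fold change 0.59, SE 0.29, adjusted p = 0.304 in edgeR).

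The adaptor Pycard had 339 and 389 CPM in WT bilirubin, against 297 and 342 CPM in WT vehicle. The groups overlapped, and the fold change was 0.06 (SE 0.29, edgeR adjusted p = 0.936).

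Of the sensors, Nlrp3 had 68.4 and 147 CPM in WT bilirubin, against 75.2 and 79.9 CPM in WT vehicle. Replicate 2 of WT bilirubin was above, and replicate 1 below, both vehicle libraries, and the log2 fold change of 0.32 (SE 0.34, edgeR adjusted p = 0.655) was 0.72 without replicate 1 and -0.32 without replicate 2. Aim2 had 100 and 145 CPM in WT bilirubin, against 69.0 and 76.0 CPM in WT vehicle, without overlap (log2 fold change 0.62, SE 0.28, adjusted p = 0.254 in edgeR). Nlrc4 ran the other way, with 35 and 5 UMIs or 7.21 and 2.37 CPM in WT bilirubin, against 35 and 105 UMIs or 7.75 and 14.7 CPM in WT vehicle. Its log2 fold change of -1.22 (SE 0.49, edgeR adjusted p = 0.209) became -2.45 without WT bilirubin replicate 1, which passed (adjusted p = 0.0228) but sets 1 library with 5 UMIs against WT vehicle, with the spread taken from the other groups, and -0.80 without replicate 2 (adjusted p = 0.368).

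The regulators did not pass either. Nek7 had 106 and 162 CPM in WT bilirubin, against 91.4 and 88.3 CPM in WT vehicle, without overlap (log2 fold change 0.44, SE 0.28, edgeR adjusted p = 0.433). Txnip had 341 and 676 CPM in WT bilirubin, on either side of the 352 and 431 CPM in WT vehicle (log2 fold change 0.24, SE 0.33, edgeR adjusted p = 0.749).

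**Figure D2:**
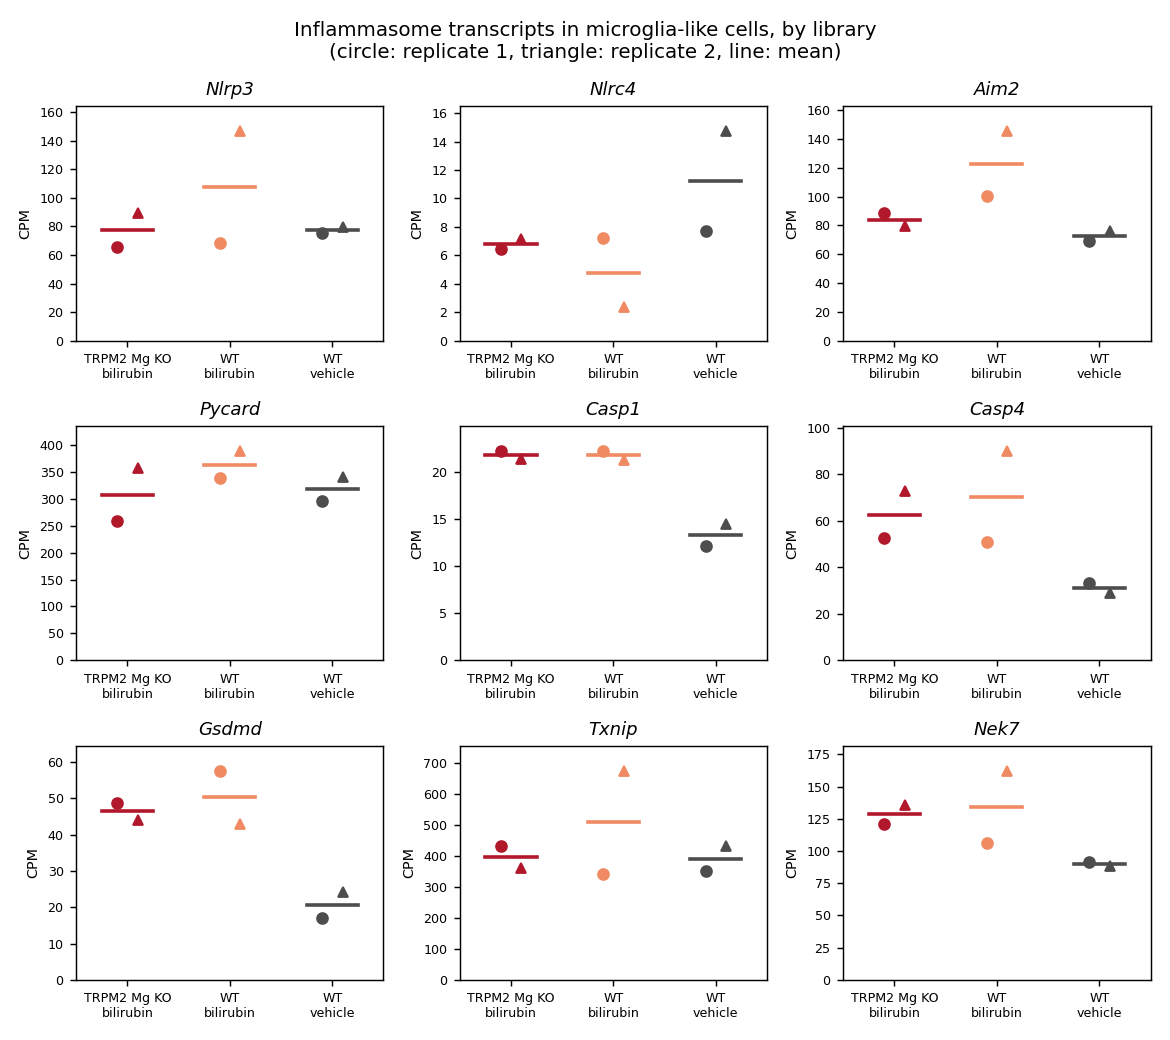
CPM of each transcript in microglia-like cells (vertical axis from 0) for the 2 libraries of each group; the circle is replicate 1, the triangle replicate 2 and the line their mean. Gsdmd, Casp4, Casp1, Nek7 and Aim2 lie higher in all 4 libraries with bilirubin than in both WT vehicle libraries. Of all genes, 32% lay wholly higher in WT bilirubin and 32.7% in TRPM2 Mg KO bilirubin than in WT vehicle. The share of all genes higher in all 4 libraries with bilirubin together is not given here. In Nlrp3 and Txnip the WT bilirubin libraries lie on either side of both WT vehicle libraries.

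The third comparison set the knockout against WT under the same treatment. None of the 9 members was called by edgeR in TRPM2 Mg KO bilirubin over WT bilirubin (0.00676% of all genes, 1 gene), none had an unadjusted p under 0.05, and DESeq2 called none of 9. Of the 9 log2 fold changes 2 were above 0, and their median was -0.17, beside 0.00 for all genes. No member lay higher in both knockout libraries (13.6% of all genes did) and 1 lay lower in both (12.5% did).

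That member was Aim2, with 88.4 and 79.8 CPM in TRPM2 Mg KO bilirubin, against 100 and 145 CPM in WT bilirubin (log2 fold change -0.52, SE 0.28, edgeR adjusted p = 1.00). Nlrp3 had 65.4 and 89.3 CPM in TRPM2 Mg KO bilirubin, against 68.4 and 147 CPM in WT bilirubin, with overlap (log2 fold change -0.47, SE 0.35). Without WT bilirubin replicate 1 the Nlrp3 value was -0.93 (edgeR adjusted p = 0.117), and without replicate 2 it was 0.11.

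Gsdmd had 48.8 and 44.1 CPM in TRPM2 Mg KO bilirubin, both between the values of the WT bilirubin libraries (-0.12, SE 0.31). Casp4 had 52.5 and 72.6 CPM (-0.17, SE 0.33) and Casp1 22.2 and 21.4 CPM (0.00, SE 0.31). The 4 other log2 fold changes were -0.34 (SE 0.34) for Txnip, -0.23 (SE 0.30) for Pycard, -0.05 (SE 0.29) for Nek7 and 0.31 (SE 0.56) for Nlrc4. With standard errors of 0.28 to 0.56, these values do not show that the members were alike in knockout and WT.

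Against WT vehicle, the TRPM2 Mg KO bilirubin libraries had no member called by edgeR (0% of all genes) or by DESeq2, and 2 members, Gsdmd and Casp4, had an unadjusted p under 0.05, as did 5.74% of all genes. This comparison shares its vehicle libraries with the second and its knockout libraries with the third, so its values are not independent of theirs. In 5 members both knockout libraries lay higher (32.7% of all genes did), and in 1, Nlrc4, both lay lower (13.8% did). The log2 fold changes were 1.05 (SE 0.31, edgeR adjusted p = 0.778) for Gsdmd, 0.87 (SE 0.33) for Casp4, 0.59 (SE 0.30) for Casp1, 0.39 (SE 0.29) for Nek7 and 0.10 (SE 0.28) for Aim2, the 5 that did not overlap. Nlrc4 was at -0.91 (SE 0.51), Pycard at -0.17 (SE 0.29), Nlrp3 at -0.14 (SE 0.35) and Txnip at -0.10 (SE 0.34).

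**Figure D3:**
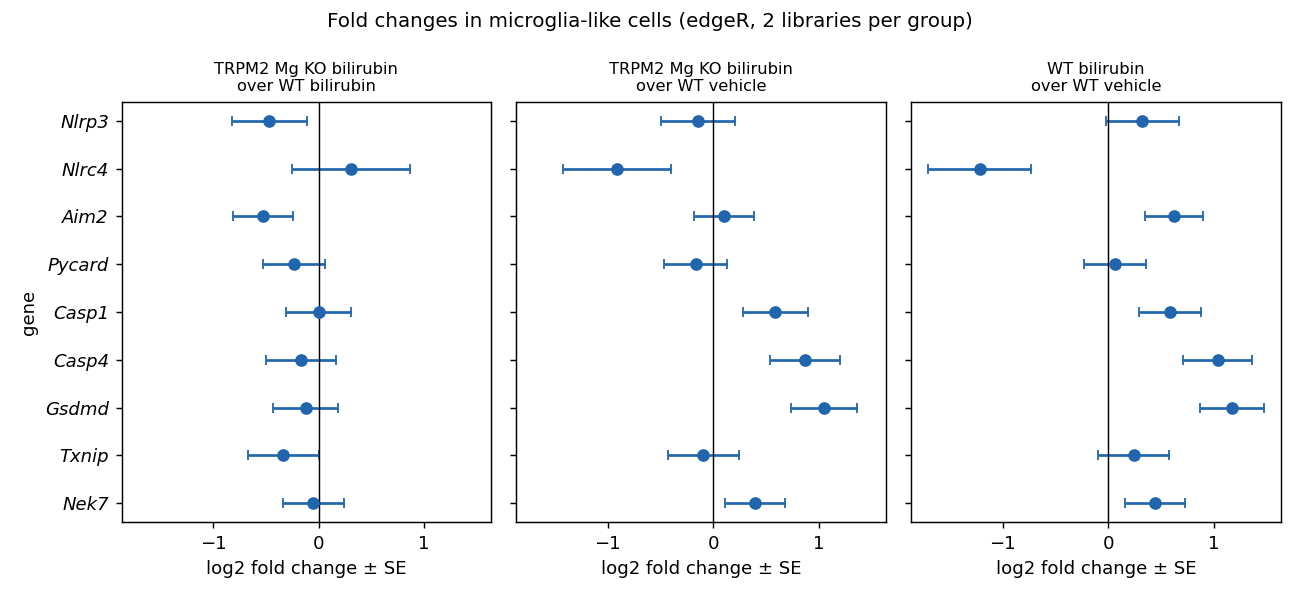
Log2 fold change of each transcript in microglia-like cells in the 3 comparisons; points are edgeR estimates and bars their standard errors. Gsdmd, at 1.05 and 1.17, and Casp4, at 0.87 and 1.04, lie above 0 in both comparisons with WT vehicle, and the values of TRPM2 Mg KO bilirubin over WT bilirubin lie between -0.52 and 0.31.

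The microglia marker list differed between the same groups, as given above: all 4 libraries with bilirubin were above both WT vehicle libraries. Markers of other cells moved too. Summed excitatory neuron markers in microglia-like cells came to 160 and 137 CPM in TRPM2 Mg KO bilirubin, 106 and 62.0 CPM in WT bilirubin, and 268 and 182 CPM in WT vehicle, with all 10 detected. Summed neutrophil markers came to 14.6 and 8.33 CPM in TRPM2 Mg KO bilirubin, 52.7 and 116 CPM in WT bilirubin, and 18.1 and 63.8 CPM in WT vehicle, with all 10 detected. The part of these in the members' values was not tested, but the members were set against the UMIs of 10 microglia and 10 general macrophage markers in the same cells.

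On that scale Gsdmd had 1.28 and 1.20 UMIs per 1000 marker UMIs in TRPM2 Mg KO bilirubin, 1.33 and 0.971 in WT bilirubin, and 0.653 and 0.768 in WT vehicle, so both groups with bilirubin still lay above WT vehicle. Casp4 had 1.37 and 1.98 in TRPM2 Mg KO bilirubin, 1.16 and 2.03 in WT bilirubin, and 1.26 and 0.919 in WT vehicle, and WT bilirubin now overlapped WT vehicle. Pycard, flat in CPM, had 6.76 and 9.74 in TRPM2 Mg KO bilirubin and 7.78 and 8.77 in WT bilirubin, below the 11.4 and 10.8 in WT vehicle. Nlrc4 had 0.168 and 0.195 in TRPM2 Mg KO bilirubin, 0.166 and 0.0534 in WT bilirubin, and 0.297 and 0.466 in WT vehicle. The share of all genes lying wholly above or below WT vehicle on this scale is not given here. These positions are therefore a description and not a result about the members. With these marker UMIs as library size, an alternative chosen after seeing the data, the median log2 fold change of all genes in WT bilirubin over WT vehicle was -0.44. On that scale 1754 of all 14793 genes (11.9%) were called, 1728 of them lower. Nlrc4 stood at -1.69 and was among them (edgeR adjusted p = 0.0343), with Gsdmd at 0.70 (adjusted p = 0.151), Casp4 at 0.54 (adjusted p = 0.331) and Pycard at -0.42 (adjusted p = 0.391); Pycard, Nlrp3 (-0.16), Txnip (-0.24) and Nek7 (-0.0488) changed sign on this scale.

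**Figure D4:**
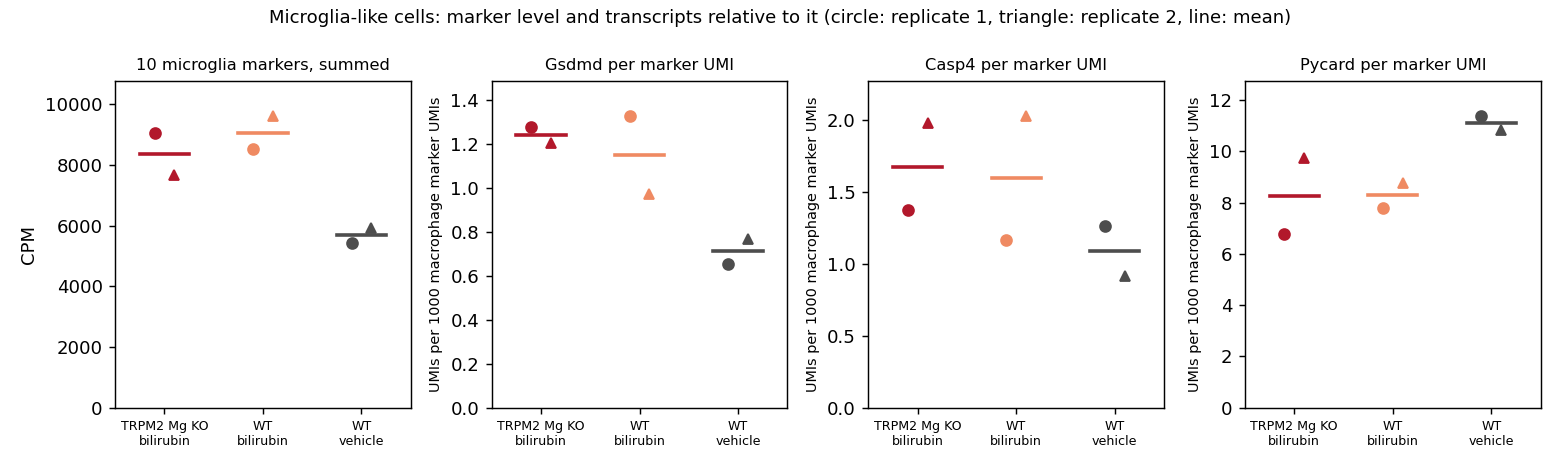
Microglia-like cells of the 3 groups: the summed CPM of the 10 microglia markers (left), and UMIs of Gsdmd, Casp4 and Pycard per 1000 UMIs of the 20 microglia and macrophage markers; circles are replicate 1, triangles replicate 2 and lines their mean. Markers are higher in the 4 libraries with bilirubin. Per marker UMI, Gsdmd remains above WT vehicle (0.653 and 0.768) in all 4, Casp4 of WT bilirubin overlaps it and Pycard lies below it. The share of all genes lying wholly above or below WT vehicle on this scale is not given here.

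Outside microglia-like cells no member was called by edgeR in any class or comparison. For whole libraries, in which fewer cells of a type and less RNA per cell cannot be told apart, 0 of 9 were called; the share of all genes called was 0.00513% in WT bilirubin over WT vehicle, 0.00513% in TRPM2 Mg KO bilirubin over WT bilirubin and 0% in TRPM2 Mg KO bilirubin over WT vehicle, and 0, 0 and 1 members had an unadjusted p under 0.05, beside 10.6%, 3.51% and 6.31% of all genes. In endothelial-like cells 5 members passed the low-count filter, and the shares of all genes called in the same 3 comparisons were 1.91%, 0.0567% and 0.0227%. In choroid plexus-like cells 9 were tested and the shares were 0.643%, 0.05% and 0.114%. In ependymal-like cells 3 were tested, beside 0%, 0% and 0.0463%. In astrocyte-like cells 6 were tested, beside 0%, 0% and 0.009%, and in oligodendrocyte-like cells 3, beside 2.22%, 0% and 0.0415%. In WT bilirubin over WT vehicle, unadjusted p-values were under 0.05 for 1 member in endothelial-like, 1 in choroid plexus-like, 0 in ependymal-like, 3 in astrocyte-like and 2 in oligodendrocyte-like cells. The same held for 17.6% of all genes in endothelial-like, 12.7% in choroid plexus-like, 6.42% in ependymal-like, 15.4% in astrocyte-like and 16.8% in oligodendrocyte-like cells. DESeq2 called no member in any of these classes or in whole libraries, although in WT bilirubin over WT vehicle it gave an adjusted p to only 1 member in endothelial-like and to none in astrocyte-like and oligodendrocyte-like cells.

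In endothelial-like cells Gsdmd had 22.5 and 22.0 CPM in TRPM2 Mg KO bilirubin and 22.6 and 31.4 CPM in WT bilirubin, against 9.17 and 4.23 CPM in WT vehicle, where these values rest on 4 and 3 UMIs. The bilirubin groups lay above WT vehicle, with a log2 fold change of 1.86 (SE 0.59, edgeR adjusted p = 0.0809) in WT bilirubin and 1.77 (SE 0.58, adjusted p = 0.159) in TRPM2 Mg KO bilirubin. It passed the low-count filter of this class (15.4 CPM in at least 2 libraries) in 4 libraries with bilirubin and 0 with vehicle, so its being tested depended on the groups where it was high and these fold changes are given as a description. The summed endothelial markers of these cells lay apart the same way, at 9842 and 7979 CPM in TRPM2 Mg KO bilirubin, 10410 and 12750 CPM in WT bilirubin, and 5489 and 5582 CPM in WT vehicle, and their part in the Gsdmd values was not tested.

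In whole libraries Gsdmd had 15.01 and 12.04 CPM in TRPM2 Mg KO bilirubin, 13.5 and 7.850 CPM in WT bilirubin, and 7.845 and 6.85 CPM in WT vehicle. The log2 fold change over WT vehicle was 1.00 (SE 0.34, edgeR adjusted p = 0.738) in TRPM2 Mg KO bilirubin and 0.60 (SE 0.34, adjusted p = 0.556) in WT bilirubin. Replicate 2 of WT bilirubin lay next to the vehicle libraries.

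Nlrc4 in choroid plexus-like cells, its highest class, had 16.6 and 13.1 CPM in TRPM2 Mg KO bilirubin and 16.2 and 14.8 CPM in WT bilirubin, below the 20.98 and 30.6 CPM in WT vehicle, of which the first rests on 9 UMIs. The log2 fold change was -0.83 (SE 0.39, edgeR adjusted p = 0.632) in TRPM2 Mg KO bilirubin and -0.76 (SE 0.36, adjusted p = 0.368) in WT bilirubin over WT vehicle. In ependymal-like cells the groups stood in the other order, with 22.2 and 22.4 CPM in TRPM2 Mg KO bilirubin, 12.2 and 13.1 CPM in WT bilirubin, and 10.0 and 8.59 CPM in WT vehicle, from 2 to 15 UMIs a library, too few to pass the filter.

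In astrocyte-like cells of WT bilirubin over WT vehicle, 3 members had an unadjusted p under 0.05, each lower: Nlrp3 at -1.86 (SE 0.66, edgeR adjusted p = 0.189), Aim2 at -1.54 (SE 0.66, adjusted p = 0.272) and Pycard at -0.85 (SE 0.39, adjusted p = 0.303). Nlrp3 and Aim2 passed the filter of this class (9.58 CPM) in both WT vehicle libraries and in 0 of the others, so they were tested only because they were high with vehicle, and their values are a description. Pycard was also lower in oligodendrocyte-like cells, by unadjusted p (-1.09, SE 0.41, adjusted p = 0.168), as was Txnip (-1.004, SE 0.36, adjusted p = 0.146). Without WT bilirubin replicate 1, where 1 library stands for the group, Pycard passed at -1.62 (adjusted p = 0.0182) in astrocyte-like cells, as did 8.95% of all genes, and at -1.83 (adjusted p = 0.0230) in oligodendrocyte-like cells, as did 5.77%. Without replicate 2 it was at -0.42 (adjusted p = 0.601, 0.321% of all genes called) in astrocyte-like and -0.64 (adjusted p = 0.453, 4.78% called) in oligodendrocyte-like cells. Microglia markers in astrocyte-like cells summed to 888 and 675 CPM in TRPM2 Mg KO bilirubin. They summed to 756 and 422 CPM in WT bilirubin and 727 and 682 CPM in WT vehicle. General macrophage markers summed there to 6091 and 2094 CPM in WT bilirubin, against 6909 and 7081 CPM in WT vehicle. In oligodendrocyte-like cells microglia markers summed to 579 and 290 CPM in WT bilirubin, against 602 and 601 CPM in WT vehicle. General macrophage markers summed there to 3905 and 1444 CPM, against 4586 and 4205 CPM. The part of such RNA in the members' values in both classes was not tested.

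**Figure D5:**
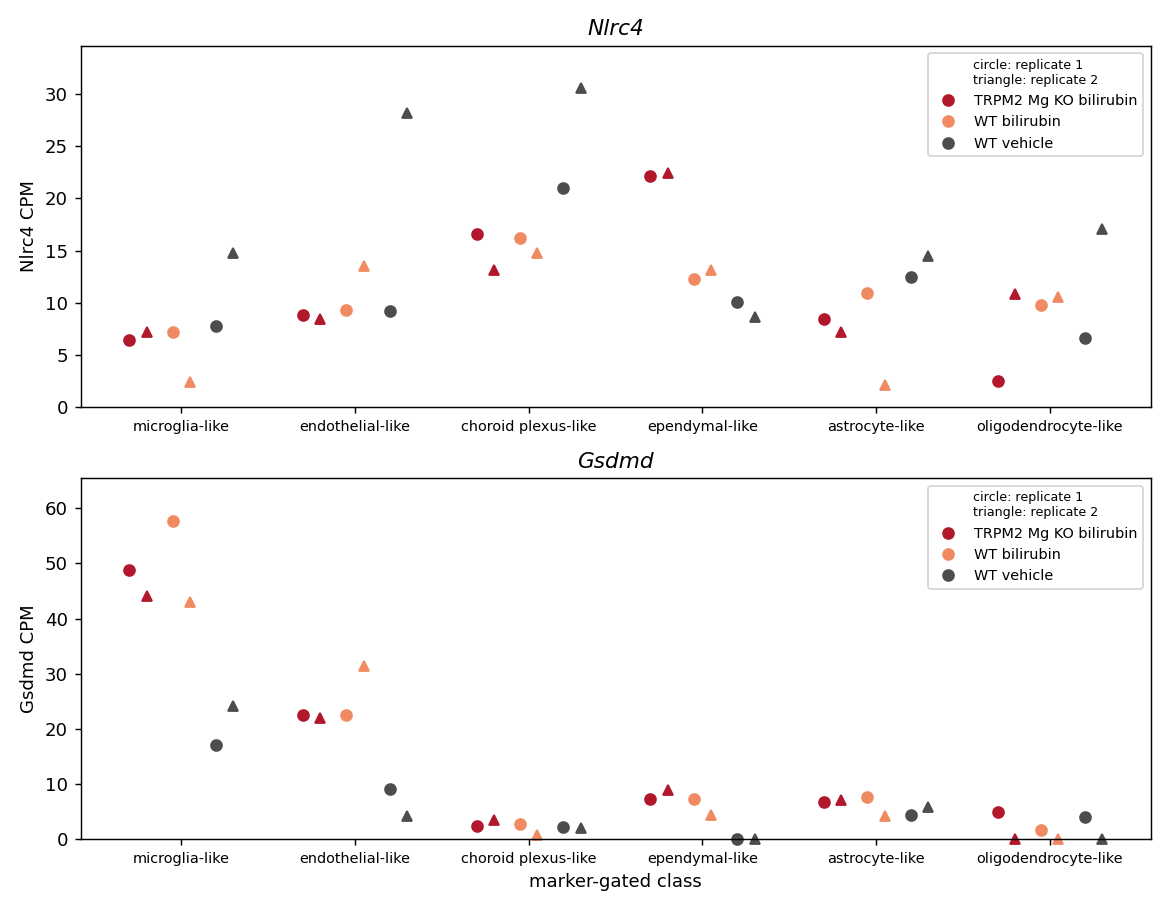
CPM of Nlrc4 (top) and Gsdmd (bottom) in 6 classes, by library; colours are the groups, circles replicate 1 and triangles replicate 2. Nlrc4 reaches 30.6 CPM in choroid plexus-like cells and stays at or below 14.7 CPM in microglia-like cells. Gsdmd in microglia-like and endothelial-like cells is higher in all 4 libraries with bilirubin than in both WT vehicle libraries. The share of all genes lying so is not given here.

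Other immune cells were too few for a test. Neutrophil-like cells, 12 and 0 in TRPM2 Mg KO bilirubin, 20 and 48 in WT bilirubin, and 3 and 19 in WT vehicle, held 8 Nlrp3 UMIs in the knockout replicate that had such cells, 17 and 41 in WT bilirubin, and 0 and 1 in WT vehicle. Summed by group, this was 162 CPM (exact 95% Poisson interval 69.9 to 319) in TRPM2 Mg KO bilirubin, 214 CPM (162 to 276) in WT bilirubin and 15.5 CPM (0.393 to 86.5) in WT vehicle; the intervals cover counting error only. Monocyte-like cells, 36 in all, held Nlrp3 at 245 CPM (173 to 338) over the 6 libraries. T or NK-like cells, 867 in all, held Nlrp3 at 4.15 CPM (1.99 to 7.63) but Aim2 at 48.1 CPM (39.8 to 57.7), and Pycard at 174 CPM (158 to 192).

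The other genes of the pathway were followed in microglia-like cells through 4 lists with 62 names, 60 of them in the files and 52 past the low-count filter. None was called by edgeR in any of the 3 comparisons. In WT bilirubin over WT vehicle 44 of the 52 fold changes were above 0 and 19 had an unadjusted p under 0.05; in TRPM2 Mg KO bilirubin over WT bilirubin these counts were 15 and 2, and in TRPM2 Mg KO bilirubin over WT vehicle 42 and 9. Of all genes, 18.4%, 3.64% and 5.74% had an unadjusted p under 0.05 in these 3 comparisons, in that order. DESeq2 called 4 in WT bilirubin over WT vehicle (Cd14, Il1a, Il1b and Nfkbia), beside 4.32% of all genes with an adjusted p. Without WT bilirubin replicate 1 edgeR called 11 of the list, beside the 10.7% of all genes given above.

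Among substrates and execution genes, 9 of 10 were tested, with a median log2 fold change of 0.33 in WT bilirubin over WT vehicle. Il1b, the cytokine that caspase-1 matures, had 21.3 and 40.5 CPM in TRPM2 Mg KO bilirubin, 41.4 and 90.4 CPM in WT bilirubin, and 6.64 and 14.3 CPM in WT vehicle. Its log2 fold change was 2.47 (SE 0.45, edgeR adjusted p = 0.109) in WT bilirubin over WT vehicle and -1.16 (SE 0.46, adjusted p = 1.00) in TRPM2 Mg KO bilirubin over WT bilirubin; without WT bilirubin replicate 1 both passed, at 2.87 (adjusted p = 0.000934) and -1.68 (adjusted p = 0.0368, beside 2.22% of all genes). The WT bilirubin library left there is the one with the highest neutrophil marker sum. Without replicate 2 neither passed, at 1.81 (edgeR adjusted p = 0.0543) and -0.61 (adjusted p = 0.986, beside 0.0193% of all genes). Neutrophil-like cells held Il1b at 1777 CPM over all libraries, and the neutrophil marker sums given above had their highest value in the same library as Il1b; their part in it was not tested. Il1a, an alarmin of the same family, had 188 and 156 CPM in TRPM2 Mg KO bilirubin, 190 and 189 CPM in WT bilirubin, and 63.7 and 79.4 CPM in WT vehicle (1.28, SE 0.27, adjusted p = 0.121 in WT bilirubin over WT vehicle, edgeR). Ninj1, which ruptures the plasma membrane late in pyroptosis, was at 0.48 (SE 0.31) in WT bilirubin and 0.42 (SE 0.32) in TRPM2 Mg KO bilirubin over WT vehicle. Il1a was at 1.15 (SE 0.27) and Il1b at 1.30 (SE 0.47) in TRPM2 Mg KO bilirubin over WT vehicle, both with an edgeR adjusted p = 0.778. The gasdermin Gsdme was at -0.29 (SE 0.44) in TRPM2 Mg KO bilirubin over WT bilirubin.

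Priming and trigger genes were all tested, 21 of 21, with a median of 0.64 in WT bilirubin over WT vehicle and -0.32 in TRPM2 Mg KO bilirubin over WT bilirubin. The lipopolysaccharide co-receptor Cd14 had 176 and 190.5 CPM in TRPM2 Mg KO bilirubin, 238 and 221 CPM in WT bilirubin, and 92.3 and 115 CPM in WT vehicle (1.02, SE 0.27, edgeR adjusted p = 0.123 in WT bilirubin over WT vehicle). The receptor adaptor Myd88 was at 1.00 (SE 0.30) and the ATP-gated channel P2rx4 at 0.94 (SE 0.28) in the same comparison. The smallest p in TRPM2 Mg KO bilirubin over WT bilirubin were those of Tlr2, a receptor of bacterial lipoproteins (-0.90, SE 0.35), the kinase Ripk1 (-0.54, SE 0.31) and the transcription factor Irf8 (-0.42, SE 0.27), each with an edgeR adjusted p = 1.00. Tlr2 passed without WT bilirubin replicate 1 (-1.31, adjusted p = 0.0391) and was at -0.46 without replicate 2 (adjusted p = 0.986). Over WT vehicle, the 3 of smallest p in TRPM2 Mg KO bilirubin were P2rx4 (0.85, SE 0.30), the protease Casp8 (0.72, SE 0.28) and Cd14 (0.70, SE 0.28), each with an edgeR adjusted p = 0.778.

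Of the negative regulators, 13 of 15 names were in the files and 12 were tested, with a median of 0.28 in WT bilirubin over WT vehicle. Tnfaip3, which encodes the NF-kB inhibitor A20, had 106 and 139 CPM in TRPM2 Mg KO bilirubin, 115 and 220.1 CPM in WT bilirubin, and 79.4 and 62.1 CPM in WT vehicle (1.10, SE 0.33, edgeR adjusted p = 0.141 in WT bilirubin over WT vehicle). Nfkbia, the inhibitor I-kappa-B alpha, was at 0.95 (SE 0.32) and Trim30a at 0.90 (SE 0.32). The same 3 genes had the smallest p in TRPM2 Mg KO bilirubin over WT bilirubin, at -0.58 (SE 0.31) for Nfkbia, -0.46 (SE 0.33) for Trim30a and -0.43 (SE 0.34) for Tnfaip3. Cd300a was at 0.84 (SE 0.33), Tnfaip3 at 0.67 (SE 0.34) and Serpinb1a, an inhibitor of neutrophil proteases and inflammatory caspases, at 0.69 (SE 0.50) in TRPM2 Mg KO bilirubin over WT vehicle.

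Of the other sensors, 10 of 16 were tested, with a median of 0.72 in WT bilirubin over WT vehicle. Nlrp1b was at 1.06 (SE 0.34), Naip6 at 0.91 (SE 0.33) and Ifi204 at 1.60 (SE 0.63, edgeR adjusted p = 0.203). Without WT bilirubin replicate 1 Nlrp1b (1.45), Ifi204 (2.28), Naip2 (1.117) and Naip5 (1.13) passed; without replicate 2 they were at 0.51, 0.52, 0.06 and 0.25 in the same order, with edgeR adjusted p from 0.417 to 0.952. With the knockout over WT bilirubin, Ifi204 was at -1.19 (SE 0.68), Naip5 at -0.55 (SE 0.36) and Nlrp1b at -0.52 (SE 0.35); in TRPM2 Mg KO bilirubin over WT vehicle Nlrp1a was at 1.22 (SE 0.39), Naip6 at 0.81 (SE 0.34) and Naip2 at 0.66 (SE 0.35). The Naip genes, and likewise Nlrp1a and Nlrp1b, are near-identical copies among which reads may be split, so their single values are uncertain.

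As a description over 6 classes and 13932 genes, the genes whose mean log2(CPM + 1) ran most like that of a member were named. They were Mpeg1, Laptm5 and Cdh23 for Nlrp3 (Pearson r from 0.997 to 0.999), Ncf1, Pik3ap1 and Calhm6 for Pycard (0.997 to 0.998), Pld4, Unc93b1 and Lcp2 for Casp1 (r of 0.999 for each), and Crybb1, Btk and Plekho1 for Casp4 (0.997 to 0.998). For Aim2 they were Cenpo, Ythdf2 and Snx2 (0.995 to 0.998), for Gsdmd Ecscr and Rplp1 (0.994 and 0.992), for Txnip Zfp951, Rnase4 and Uspl1 (0.992 to 0.997), and for Nek7 Uvrag, Ccdc84 and Pold4 (0.993 to 0.997). For Nlrc4 they were Exph5, Wbp1 and Sdr39u1 (0.987 to 0.994). The 6 points of each gene share libraries and depth, and with so many genes high values are easily reached.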

How the data were processed

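Single-cell RNA was measured in 6 mouse brain libraries. The authors deposited raw UMI counts per gene and cell, with gene and barcode tables (an other kind of content, without measurements). Cell Ranger 8.0.0 and Scanpy 1.9.6 are named in the submitters' processing notes, with mm10 and GRCm39 as builds of unstated use; the file headers name Cell Ranger 9.0.1. The cell caller's settings are not given in the sources used here. Because the build behind the counts is unclear, coordinates are printed only for RefSeq promoters.

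A cell was kept from 500 UMIs and 300 genes upwards, with mitochondrial UMIs up to 15%. Classes were gated by marker lists (18 lists of 10). No doublet caller was run. A cell stayed ungated where no class had at least 2 times as many markers as any other. Cells with fewer markers of a second class were kept, so mixed cells were not all left out. Leaving out the 5% deepest cells was an alternative. UMIs were summed per library and class and tested across all genes with edgeR 4.0.16 (R 4.3.3; quasi-likelihood, TMM factors 0.858 to 1.15, filterByExpr, all 6 libraries, group only, two-sided, Benjamini-Hochberg per class and comparison, threshold 0.05). DESeq2 1.42.0 was an alternative. The test was tested on simulated data. Printed CPM are not TMM-scaled; a ratio of sums is on that CPM scale and fold changes are on the edgeR log2 scale. Differences between classes use log2(CPM + 1) and an exact sign-flip permutation test in SciPy 1.17.1. Scaling to macrophage marker UMIs and leaving out the deepest cells were alternatives chosen after seeing the data. Precision is limited by 2 libraries per group and by UMIs per class.

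Named are all 9 members, the 3 genes of smallest p in each pathway list and comparison, the 3 genes most like each member with at least 200 UMIs, and marker sums; Naip2, Naip5, Ifi204, Tlr2 and Il1b without a library, Il1b in neutrophil-like cells, and immune classes were added after their values were seen. Of the genes these rules name, 2 are not reported here. The members and lists were chosen with earlier results of these data known. Of the 62 pathway names, 2 are older aliases of listed genes.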

Additional observations from a re-analysis of the deposited data

Results flagged for a closer look

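In 8 cases every library of 1 group lay above, in one class, and every library lay below, in another class, the libraries it was compared with. In microglia-like cells alone, 32% of all genes lay wholly higher and 20.8% wholly lower in WT bilirubin than in WT vehicle. These shares were 32.7% and 13.8% in TRPM2 Mg KO bilirubin over WT vehicle, and 13.6% and 12.5% over WT bilirubin. No share of all genes is given here for the other classes or for opposite directions between classes. The 8 cases are therefore a description and not a result about the members. None of these differences between classes was tested, and none of the single values passed edgeR's test. In WT bilirubin over WT vehicle, the log2 fold change of Casp4 was 1.19 higher in microglia-like cells (1.04) than in choroid plexus-like cells (-0.15). That of Aim2 was 0.62 in microglia-like cells, 1.09 above its value in endothelial-like cells (-0.47), 0.79 above that in choroid plexus-like cells (-0.17) and 2.16 above that in astrocyte-like cells (-1.54). In TRPM2 Mg KO bilirubin over WT vehicle, Aim2 was at 0.10 in microglia-like cells, 0.90 above endothelial-like (-0.80) and 1.60 above astrocyte-like cells (-1.51). In TRPM2 Mg KO bilirubin over WT bilirubin, Txnip was at 0.73 in astrocyte-like cells, 1.34 above endothelial-like cells (-0.61), and at 0.84 in oligodendrocyte-like cells, 1.46 above endothelial-like cells. Aim2 in astrocyte-like cells was tested only because it was high with vehicle, and rests on 0 to 21 UMIs per library. In endothelial-like cells Aim2 passed the filter (15.4 CPM) in 2 WT bilirubin and 2 WT vehicle libraries but in 0 knockout libraries. Its being tested there depended on the WT groups, so its knockout value is a description. In choroid plexus-like cells Casp4 rests on 70 and Aim2 on 123 UMIs over all libraries. WT vehicle replicate 1, however, had only 156 such cells, with 428958 UMIs of all genes. At mean WT vehicle levels of 2.155 CPM for Casp4 and 4.15 CPM for Aim2, the values of that library rest on a few UMIs. The fold changes of Casp4 and Aim2 in choroid plexus-like cells had SE 0.66 and 0.54 in WT bilirubin over WT vehicle. Groups of 2 libraries are too small for a check of single outlying libraries.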

How the results depend on the processing

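Over 16 alternatives, 396 of the members' fold changes in microglia-like cells kept their direction and their side of the threshold, 4 passed it and 32 changed sign without passing. Counts of called members changed in 3 cases in microglia-like cells, all in WT bilirubin over WT vehicle: 1 with no low-count filter (Gsdmd), 1 with scaling to macrophage marker UMIs (Nlrc4), and 0 to 2 when leaving out 1 library. They were 0 with the replicate block. In the other classes the count was 0 to 2 when leaving out 1 library, in the same comparison, and in whole libraries it was 0 under every alternative run. The pathway lists in WT bilirubin over WT vehicle had 4 called with DESeq2, 5 with no low-count filter, 2 with the replicate block (Il1a, Il1b), 2 with the stricter gate, 1 with scaling to marker UMIs, and 0 to 11 when leaving out 1 library (1 without WT vehicle replicate 2, 11 without WT bilirubin replicate 1); in TRPM2 Mg KO bilirubin over WT bilirubin they had 0 to 2 when leaving out 1 library. The share of all genes called is not given here for the replicate block, the stricter gate or the fit without WT vehicle replicate 2. Those counts are therefore not read as results about the lists. The cause of the differences between alternatives was not tested.

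Of the 45 class differences, 42 passed with a pseudocount of 10 CPM and with the stricter cell filter and 41 with the stricter gate. Leaving out 1 library gave 0 in each case, because 5 libraries allow no p below 0.0625; the direction held in 44 to 45 of 45. Shares with a member UMI were 87.7% in TRPM2 Mg KO bilirubin, 90.5% in WT bilirubin and 86.1% in WT vehicle when thinned to 2000 UMIs, and 64.7% in TRPM2 Mg KO bilirubin, 71.1% in WT bilirubin and 65.1% in WT vehicle with the stricter gate.

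Leaving out 1 library changed the sign of these log2 fold changes in microglia-like cells. In WT bilirubin over WT vehicle the ranges were -0.318 to 0.724 for Nlrp3, -0.0498 to 0.165 for Pycard (-0.0355 without WT vehicle replicate 1) and -0.334 to 0.593 for Txnip. In TRPM2 Mg KO bilirubin over WT bilirubin they were -0.934 to 0.108 for Nlrp3, -0.522 to 0.008 for Pycard, -0.058 to 0.0644 for Casp1, -0.544 to 0.224 for Casp4, -0.334 to 0.147 for Gsdmd, -0.736 to 0.191 for Txnip, -0.318 to 0.233 for Nek7 and -0.171 to 1.48 for Nlrc4. In TRPM2 Mg KO bilirubin over WT vehicle they were -0.404 to 0.0698 for Nlrp3, -0.461 to 0.03 for Pycard and -0.25 to 0.0516 for Txnip. Scaling to marker UMIs, which moved the median of all genes by -0.44 in WT bilirubin over WT vehicle, turned Nlrp3 to -0.16, Pycard to -0.423, Txnip to -0.236 and Nek7 to -0.0488 there. It turned Casp4 to 0.0505, Gsdmd to 0.107 and Nek7 to 0.168 in TRPM2 Mg KO bilirubin over WT bilirubin (median of all genes 0.23), and Aim2 to -0.166 in TRPM2 Mg KO bilirubin over WT vehicle (median -0.24). With the stricter gate Pycard was at -0.0787 in WT bilirubin over WT vehicle and Nek7 at 0.058 in TRPM2 Mg KO bilirubin over WT bilirubin. Casp1, at 0.00 in the last comparison, was at -0.0322 with median-of-ratios size factors, -0.0383 with DESeq2 and -0.0268 with the stricter cell filter.

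The replicate numbers did not pair the libraries: the correlation of deviations between same-numbered libraries was 0.08, -0.08 and 0.11 in microglia-like cells and -0.18, -0.12 and 0.05 in whole libraries. A gate on macrophage markers took 1628 to 14527 cells per library and called no member. In WT vehicle replicate 1 it took 14527 of 20003 kept cells, where the main gate gave 2739 microglia-like cells. The microglia-like class thus covers only some of the cells with macrophage markers. Nlrc4, with 5 to 105 UMIs per library in microglia-like cells, is limited by depth.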
